A study of Mus musculus with 59 samples.

Results

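The ERV1 family of endogenous retroviruses was followed in mouse haematopoietic progenitors, leaving out the VL30 elements. Members were all repeat subfamilies that the deposited repeat tables assign to family ERV1, apart from MMVL30-int and the names that begin with RLTR6 and go on with a letter or a low line, which are the VL30 long terminal repeats (LTRs). The internal row RLTR6-int stays a member under this rule. Over 7 repeat tables the rule gave 145 names of 1139 repeat names, and 130 of them were in every table. Of the 145, 29 were internal regions and 116 were LTRs, while 55 carried names given to rodent or mouse elements and 90 carried other names, MuLV-int and RodERV21-int among them. RNA-seq reads had been counted per subfamily in KLS cells (c-Kit-positive, lineage-negative, Sca-1-positive, a population that holds the stem cells) and in granulocyte–monocyte progenitors (GMPs), the committed myeloid population downstream of them. The repeat libraries used were 34, with 1263010 to 12894834 repeat reads each, of which 23584 to 378139 fell on members.

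All mice were C57BL/6, and all groups, the wild-type (WT) controls included, carried 1 copy of Cre. Daxx-KO animals were Daxx F/F, DKO animals were Daxx F/F Pu.1 F/F, and their WT controls were Daxx +/+, all in the Mx1Cre line, whose promoter answers to interferon and acts in haematopoietic as well as other interferon-responsive cells. Cells were taken 3 weeks post induction (w.p.i.), and WT cells also at 24 w.p.i. In the paper, Mx1Cre mice were induced by injections of polyinosinic:polycytidylic acid (pI:pC). A separate Mx1Cre line at 3 w.p.i. compared Pu.1 F/F animals (Pu.1-KO) with Pu.1 +/+ animals (WT). A further set of Daxx F/F and Daxx +/+ cells has no time point and no mouse line on its labels and is called untimed here. Besides 3 and 24 w.p.i., the paper describes these cell types from irradiated mice transplanted with marrow of Mx1Cre donors. The labels do not say whether the untimed set came from such mice. The animals' ages are not on the labels.

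Endogenous retroviruses are remnants of germline infections. An intact copy has an internal region with gag, pol and env genes between a pair of LTRs, which hold the promoter. The murine ERV1 family includes the gammaretroviruses related to murine leukaemia virus (MLV), some copies of which are young enough to be transcribed and to differ between mouse strains. Daxx is a chaperone that, with Atrx, deposits histone H3.3 at heterochromatin and repeats, and Trim28 with the methyltransferase Setdb1 is the classical silencing pathway of such proviruses. Pu.1 (gene Spi1) is a transcription factor of myeloid and B cells.

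Several libraries stood apart from their labels. Normalised Daxx counts were 72.2 to 102 in the 3 Daxx-KO libraries and 423 to 505 in the 3 WT KLS libraries at 3 w.p.i., and 55.1 to 83 against 622 to 688 in GMPs. Spi1, in contrast, was 2993 and 3330 in DKO KLS cells and 1669 to 2320 in WT KLS cells, so its count does not check the Pu.1 label. The second Daxx-KO library of KLS cells had a summed count of 32987 over 7 of 7 B-lineage markers, where the other Daxx-KO libraries had 1558 and 4246 and the WT libraries 468 to 757. Both DKO libraries labelled KLS held GMP markers at 105628 and 109326 (WT 4671 to 42831) and late neutrophil markers at 124134 and 159871 (WT 285 to 19407), with 5 of 5 of the latter detected. The gene table of GMPs at 3 w.p.i. has 3 Daxx-KO and 3 WT libraries, of which the repeat table holds 2 each, without the animal whose KLS library was rich in B-lineage markers. Libraries whose labels give no replicate number are called a and b.

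In the untimed set the names of the repeat columns and of the gene columns do not match in depth. Each value is a whole number of reads times 1 step per library, so the step shows the depth. For KLS cells the steps of the repeat columns labelled Daxx-KO were 1.8 and 1.77 and those labelled WT were 1.07 and 0.285, while the gene columns had 1.09 and 0.303 for Daxx-KO and 1.72 and 1.72 for WT. Repeat reads per gene read under the same name ran from 0.0634 to 2.19 in KLS cells and from 0.136 to 1.1 in GMPs. With the genotypes of the repeat columns exchanged they were 0.364 to 0.38 and 0.332 to 0.449. Daxx itself was at 33.9 and 29.7 in the KLS gene columns labelled Daxx-KO and 119 and 138 in those labelled WT. In GMPs it was at 44.6 and 22.8 against 215 and 143. The gene columns thus carry Daxx levels that match their labels, while the repeat columns hold no Daxx value. By step, however, the repeat columns labelled WT pair with the gene columns labelled Daxx-KO, and the reverse. For GMPs the repeat steps were 1.29 and 0.901 (Daxx-KO) and 2.1 and 0.398 (WT). The gene steps were 2.03 and 0.408 (Daxx-KO) and 1.3 and 0.904 (WT). The groups below keep the names as labelled, and every direction given for untimed repeats turns if the names of the repeat columns are exchanged.

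In nearly all libraries the member with the most reads was an MLV element. RLTR4_MM-int (the internal region of MLV-type proviruses), MuLV-int (a second internal MLV row) and RLTR4_Mm (the LTR of the same proviruses) are called the MLV rows here. The rows are near-identical copies of 1 virus group, so the split of reads among them is uncertain and they are not independent of each other. RLTR4_MM-int took more reads than any other member in 33 of 34 libraries. Counts are not per length, so this order reflects the length of the internal region as well as its RNA. The MLV rows held between 5.57% of all member reads (KLS cells of the Pu.1 line, Pu.1-KO library b) and 78.8% (untimed KLS cells labelled WT). In WT KLS cells at 3 w.p.i. they held 29.4% to 34.4%, so most member reads there fell on other members. On a TMM scale the summed remaining members differed little between libraries of raw counts. Expressed as counts per 1000000 repeat reads after TMM scaling within each table (normalised counts hereafter), their sum was 12258 to 13350 in WT KLS cells at 3 w.p.i., 12949 to 15581 in Daxx-KO KLS cells, and 13057 to 16127 over the GMPs at 3 w.p.i. Without TMM scaling the spread was wider. Per 1000000 repeat reads the sum of these other members ran from 10966 to 20714 over the raw-count libraries. Both ends lie in the Pu.1 line, in WT GMP library b and Pu.1-KO KLS library b. Between 0 and 22 members were at 0 in a library. Tables were scaled separately, so levels in different tables are set side by side without a test.

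**Figure D1:**
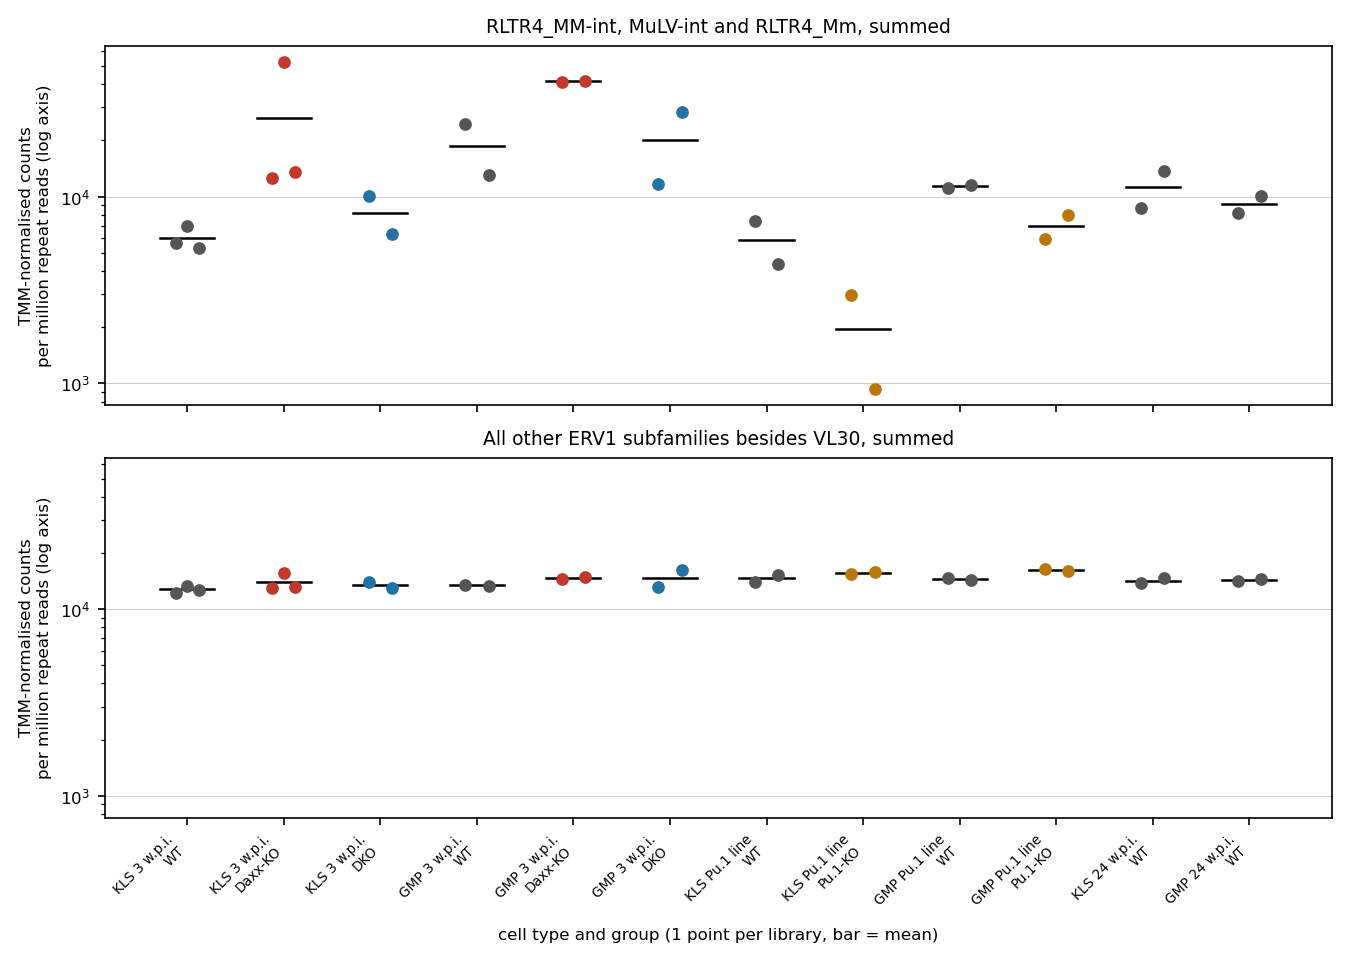
Summed normalised counts (TMM-scaled counts per 1000000 repeat reads, log axis, 1 point per library, bar at the group mean) of the 3 MLV rows (top) and of all other members (bottom) for each cell type and group. The MLV sum spans 936 to 52660 over the groups, while the sum of the other members stays between 12258 and 16380.

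For KLS cells 3 weeks after induction, the comparison of Daxx-KO with WT asks what loss of Daxx does to repeats soon after deletion. The MLV rows lay higher in all 3 Daxx-KO libraries than in any WT library, and the sum of the other members differed far less. RLTR4_MM-int was at 9107, 37465 and 9812 normalised counts in the Daxx-KO libraries and at 3989, 4548 and 3645 in the WT libraries. MuLV-int was at 1946, 9064 and 1874 against 708, 1326 and 818. RLTR4_Mm was at 1592, 6131 and 1806 against 942, 1123 and 848. The groups do not overlap for any of the 3 rows, and the second Daxx-KO library, the one rich in B-lineage markers, was further above the other Daxx-KO libraries on a log scale than those were above WT.

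The log2 differences were 2.21 ± 0.49 (SE, 3 against 3 libraries) for RLTR4_MM-int, 2.17 ± 0.58 for MuLV-int and 1.71 ± 0.46 for RLTR4_Mm. With the edgeR quasi-likelihood test and Benjamini–Hochberg adjustment over all repeats, none passed (adjusted p = 0.156, 0.22 and 0.22). Without the second Daxx-KO library the differences were smaller and the spread far smaller. RLTR4_MM-int was then higher by 1.22 ± 0.08 (adjusted p = 0.000125) and RLTR4_Mm by 0.81 ± 0.11 (adjusted p = 0.00786), while MuLV-int stood at 1.01 ± 0.21 (adjusted p = 0.0936). Leaving out the first Daxx-KO library gave 2.54 ± 0.43 for RLTR4_MM-int (adjusted p = 0.0443). The B-lineage markers were also higher in every Daxx-KO library than in any WT library, and their part in the result was not tested. Per 1000000 gene reads the MLV sum was 3680, 9694 and 3646 for Daxx-KO, with 1626, 1924 and 1489 for WT. With library sizes taken from gene reads all 3 rows passed in edgeR, at log2 1.83 (adjusted p = 2.93e-11), 1.78 (2.01e-10) and 1.35 (6.90e-06). Such small p-values rest on a spread pooled over all repeats, while the Daxx-KO sums themselves ran from 3646 to 9694.

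Over all members, 0 of 110 tested passed in this comparison, 10 had an unadjusted p under 0.05 (7.98% of all repeats), and DESeq2 called 1. Of all repeats, 0.613% passed. The Daxx-KO values lay above all WT values for 11 members, or 10% (7.61% of all repeats), and below them for 4, or 3.64% (6.5% of all repeats). The median log2 difference was 0.01 over members and -0.00 over all repeats. Among the 33 tested names of a list called mouse gammaretroviral here, 0 passed and the median was 0.08. The list was made from how names begin, and it leaves out MuLV-int. It holds RLTR4_MM-int, RLTR4_Mm, the GLN elements (MMERGLN), the MuRRS and MURVY groups, LTRIS and RLTR1. It also holds MERV1, RLTR6-int and the RLTR41 and RLTR48 groups, whose names share a beginning with RLTR4.

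Some members with lower counts followed the second Daxx-KO library. RLTR30D_RN, an LTR named from rat, was at 123, 349 and 159 for Daxx-KO, with 105, 97.5 and 153 for WT, so the groups overlap. MMERGLN-int, the internal region of GLN proviruses, was at 1171, 2493 and 1032 against 658, 1320 and 805, and these groups overlap as well. Both were highest in that library, as was MERV1_I-int at 783 against 256 to 365 elsewhere in the table. RLTR6-int was at 461, 581 and 510 against 382, 382 and 429 and does not overlap. Its log2 difference of 0.38 did not pass in edgeR (adjusted p = 0.22), and it is the member that DESeq2 called. MuRRS4-int (165, 155 and 132 against 144, 126 and 109) and RLTR1B-int (261, 287 and 272 against 263, 326 and 321) overlap. RLTR1B-int and MERV1_I-int were chosen from the mouse gammaretroviral names, and RLTR30D_RN outside the untimed KLS cells and the 24 w.p.i. cells, like MuLV-int outside the untimed KLS cells, was chosen after its values were seen.

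The DKO comparison used the same 3 WT libraries. RLTR4_MM-int was at 7974 and 4760 in the DKO KLS libraries and, scaled within that table, at 4041, 4614 and 3678 in WT, so both DKO values lie above WT, one of them narrowly. MuLV-int was at 759 and 479 against 717, 1345 and 826, which is within or below the WT range. RLTR4_Mm was at 1377 and 1086 against 954, 1139 and 855. The internal MLV rows thus went apart. The ratio of MuLV-int to RLTR4_MM-int reads was 0.0951 and 0.101 in the DKO KLS libraries, 0.177 to 0.292 in the WT KLS libraries and 0.191 to 0.242 in the Daxx-KO KLS libraries. In GMPs of the same DKO animals the ratio was 0.2 and 0.231.

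None of the 117 members tested passed in this comparison (0.605% of all repeats did), 21 had an unadjusted p under 0.05 (14.5% of all repeats) and DESeq2 called 7. Log2 differences were 0.63 ± 0.19 for RLTR4_MM-int (edgeR adjusted p = 0.236), -0.64 ± 0.29 for MuLV-int (0.379) and 0.33 ± 0.14 for RLTR4_Mm (0.338). The lowest adjusted p belonged to LTR37-int and MuRRS4-int. LTR37-int, an element with a name used across mammals and chosen here after its values were seen, was at 52.1 and 56.7 in DKO and 22.1, 17.6 and 23.1 in WT KLS cells (log2 1.38, adjusted p = 0.0515). MuRRS4-int was at 312 and 203 against 146, 128 and 110 (log2 1.01, adjusted p = 0.0736). In both the groups do not overlap. RLTR6-int was at 582 and 509 against 387, 387 and 433 (log2 0.44, adjusted p = 0.105), and RLTR30D_RN at 234 and 179 against 106, 98.9 and 155 (log2 0.79, adjusted p = 0.167). Other members lay below WT, again with separate groups. MER52-int was at 17.8 and 19.8 against 62.4, 50 and 34.7 (log2 -1.38, adjusted p = 0.105), RodERV21-int at 284 and 339 against 408, 431 and 397 (log2 -0.41, adjusted p = 0.152), LTRIS2 at 320 and 331 against 394, 465 and 410 (log2 -0.38, adjusted p = 0.165) and RLTR41C at 11.3 and 10.3 against 23.2, 25 and 24.7 (log2 -1.16, adjusted p = 0.165). MER52-int and RodERV21-int were likewise chosen after their values were seen. Groups did not overlap for 22 members upward, or 18.8% (15.8% of all repeats), and 16 downward, or 13.7% (16.1% of all repeats). GMP and late neutrophil markers moved with this comparison, and their part in it was not tested.

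Daxx-KO GMPs at 3 w.p.i. had higher MLV levels than any other library of the raw-count tables except the second Daxx-KO KLS library, on scales set within each table. RLTR4_MM-int reached 27572 and 27757 in the Daxx-KO libraries. It was at 16157 and 8444 in WT libraries, with 8331 and 19399 for DKO. For MuLV-int these values were 8494 and 8108, 4336 and 2763, and 1662 and 4479. RLTR4_Mm stood at 4940 and 5865 for Daxx-KO, with 3842 and 1777 for WT and 1656 and 4544 for DKO. Daxx-KO was above both other groups in each row, and WT and DKO overlapped or lay close, with a wide spread within WT and within DKO.

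Against WT, the Daxx-KO differences were log2 1.17 ± 0.43 for RLTR4_MM-int, 1.23 ± 0.44 for MuLV-int and 0.94 ± 0.52 for RLTR4_Mm, with an edgeR adjusted p of 0.978 for each. DKO against Daxx-KO gave -1.0 ± 0.43, -1.44 ± 0.44 and -0.80 ± 0.51 (adjusted p = 0.893, 0.877 and 0.893). In the 3 GMP comparisons 0 of 108 members passed, as did 0% of all repeats, and DESeq2 called 0. At an unadjusted p under 0.05 there were 6 members for Daxx-KO against WT (3.76% of all repeats), 7 for DKO against WT (3.26%) and 7 for DKO against Daxx-KO (5.26%). The comparisons share their libraries.

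Repeat reads per gene read were 0.137 and 0.152 for the Daxx-KO GMPs, with 0.125 and 0.203 for the controls, while the DKO libraries had 0.218 and 0.114. Within WT and within DKO the library with fewer repeat reads per gene read had the higher MLV level. Scaled to gene reads instead, the MLV sum was 5438 and 5663 per 1000000 gene reads for Daxx-KO, with 3028 and 2862 for WT and 2796 and 3152 for DKO, so on this scale the spread within WT and DKO was small and Daxx-KO stayed above both. The edgeR fit with gene-read library sizes called 0 members here too. Late neutrophil markers summed to 26719 and 27317 in these Daxx-KO libraries. WT had 40037 and 213289, and DKO had 87478 and 138001, so they ran opposite to MLV between the groups, and their part in the result was not tested.

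More members lay above WT in the Daxx-KO GMPs than below it. Groups did not overlap for 32 members upward, or 29.6%, where 18.2% of all repeats did the same, and for 14 downward, or 13%, against 15.9% of all repeats. Without the 3 MLV rows it was 29 of 105 upward, or 27.6%, and 14 downward, or 13.3%. Among the mouse gammaretroviral names it was 15 of 33 upward and 2 downward. The upward count holds RLTR4_MM-int and RLTR4_Mm, and also RLTR41A2, RLTR48A, RLTR48B and RLTR48C. MURVY-int, the internal region of a provirus group amplified on the mouse Y chromosome, was at 63.8 and 66.2 for Daxx-KO, with 15.1 and 32.9 for WT and 24.6 and 43.1 for DKO (log2 1.39 ± 0.44 for Daxx-KO against WT, edgeR adjusted p = 0.884). The study used mice of both sexes, and the part of sex in MURVY-int was not tested. RLTR30D_RN was at 517 and 452, 339 and 164, and 213 and 547 in the same order (log2 0.96 ± 0.49, adjusted p = 0.978). MMERGLN-int was at 2457 and 2484 for Daxx-KO, with 1841 and 2097 for WT and 2022 and 3673 for DKO. MuRRS4-int lay above Daxx-KO in both DKO libraries, at 228 and 245 against 164 and 174, with WT at 196 and 140. Its log2 difference of 0.48 did not pass (adjusted p = 0.877).

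**Figure D2:**
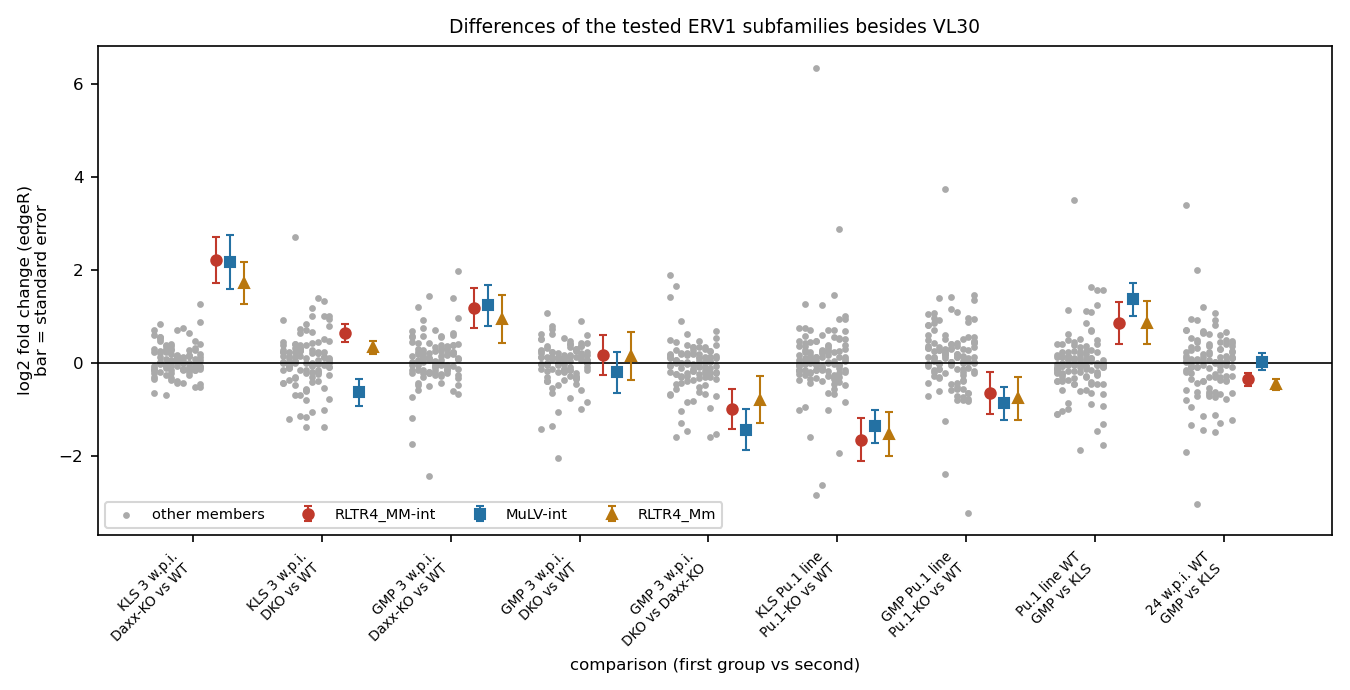
Log2 fold change from edgeR for every tested member (grey) in the 9 comparisons of raw-count libraries, with the 3 MLV rows in colour and bars of 1 standard error. The MLV rows sit at 1.71 to 2.21 for Daxx-KO against WT in KLS cells, -1.44 to -0.80 for DKO against Daxx-KO in GMPs and -1.66 to -1.37 for Pu.1-KO against WT in KLS cells, while the median over members lies between -0.04 and 0.10 in all 9.

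Untimed KLS cells showed the largest MLV difference of the comparisons made here. In deposited normalised counts, RLTR4_MM-int was at 10266 and 10012 in the repeat libraries labelled Daxx-KO and at 59993 and 49978 in those labelled WT. MuLV-int was at 2831 and 3203 against 21500 and 18991, and RLTR4_Mm at 3160 and 2885 against 16542 and 14552. RLTR30D_RN, far less abundant, was at 226 and 230 against 1169 and 1200. Replicates lay close together and the groups far apart, with the libraries labelled WT the higher ones. By step, those higher libraries pair with the gene columns labelled Daxx-KO. Members made up 1.74% and 1.64% of repeat reads in the libraries labelled Daxx-KO and 4.91% and 4.39% in those labelled WT, and without the MLV rows 1.1% and 1.01% against 1.04% and 0.985%.

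On the log2(value + 1) scale the labelled Daxx-KO minus labelled WT differences were -2.75 ± 0.16 for MuLV-int, -2.43 ± 0.17 for RLTR4_MM-int, -2.37 ± 0.19 for RLTR30D_RN and -2.36 ± 0.16 for RLTR4_Mm (limma, adjusted p = 3.21e-59, 8.40e-44, 7.88e-32 and 9.44e-45). These p-values rest on a spread pooled over all repeats. On reads recovered from the deposited values, where 100% of values were whole within 0.01, edgeR gave -3.01, -2.70, -2.65 and -2.62 with adjusted p = 1.79e-05, 1.31e-05, 0.000196 and 2.40e-05. These 4 rows passed in every alternative and without each library in turn.

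Of 105 members tested, 5 were called higher and 8 lower in the libraries labelled Daxx-KO. Over all repeats 7.85% were called higher and 3.97% lower (11.8% in either direction), and at an unadjusted p under 0.05 there were 31 members and 29.9% of all repeats. The median log2 difference was 0.27 over all repeats and 0.15 over members, and the cause of that shift was not tested. After TMM rescaling, which puts that median at -0.00, 0 members were higher and 5 lower. LTR37A (196 and 275 against 153 and 120, log2 0.77, limma adjusted p = 0.0198), RLTR1B-int (564 and 544 against 376 and 361, log2 0.59, adjusted p = 0.0307) and LTR37-int (61 and 24.8 against 70.6 and 100, log2 -1.09, adjusted p = 0.0248) passed on the deposited scale and not after TMM rescaling or on recovered reads. RLTR6-int (612 and 491 against 724 and 904, log2 -0.56, adjusted p = 0.0275) and LTRIS4B (3778 and 1097 against 952 and 1393, log2 0.82, adjusted p = 4.19e-05) also passed, LTRIS4B with overlapping groups and 1 library far above the rest. Groups were separate for 41 members upward, or 39% (55.2% of all repeats), and 22 downward, or 21% (10.1% of all repeats). In the gene columns labelled Daxx-KO, KLS and stem cell markers were at 5370 and 5098 against 22276 and 23763 in those labelled WT, and GMP markers at 11280 and 14766 against 1297 and 686. The part of such a shift in cell types was not tested.

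**Figure D3:**
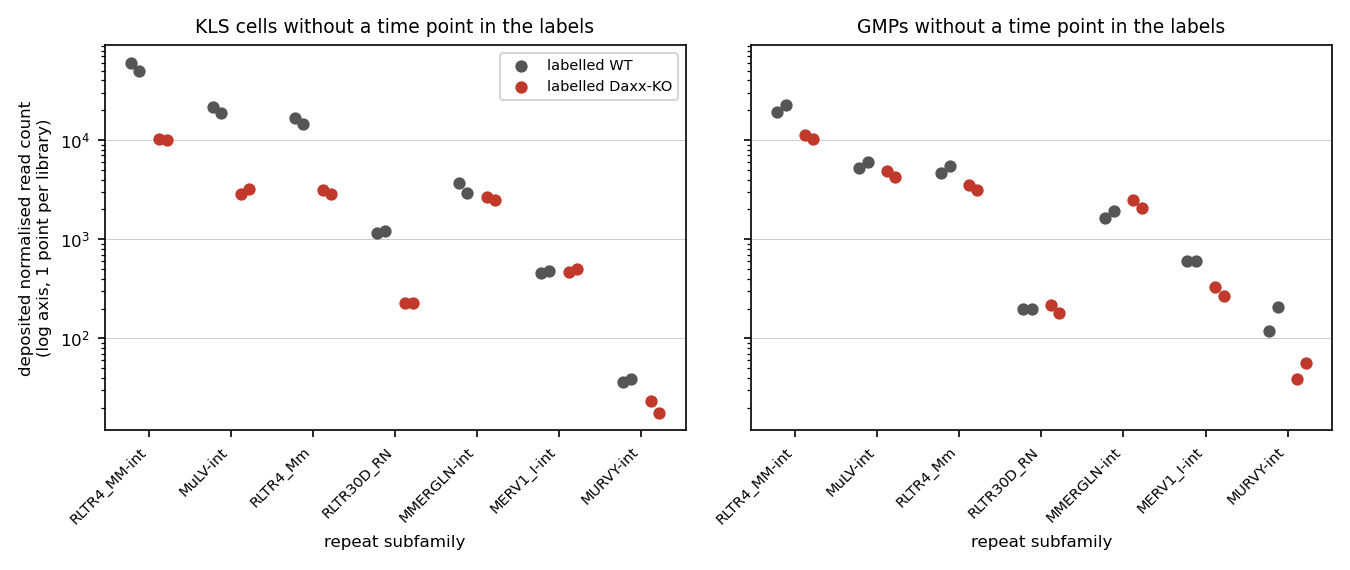
Deposited normalised read counts (log axis, 1 point per library) of 7 members in untimed KLS cells (left) and GMPs (right), by the genotype on the label of the repeat column. In KLS cells the MLV rows and RLTR30D_RN of the libraries labelled WT sit well above those labelled Daxx-KO, with RLTR4_MM-int at 49978 and 59993 against 10012 and 10266, while in GMPs the distance is smaller and RLTR30D_RN overlaps.

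In untimed GMPs the differences were smaller, and RLTR4_MM-int and RLTR4_Mm ran the same way by label. RLTR4_MM-int was at 11227 and 10195 in the libraries labelled Daxx-KO and at 19358 and 22836 in those labelled WT (log2 -0.97 ± 0.14, limma adjusted p = 0.000133). RLTR4_Mm was at 3515 and 3130 against 4622 and 5449 (log2 -0.60 ± 0.12, adjusted p = 0.00414). MuLV-int was at 4828 and 4216 against 5173 and 5980 and did not pass (log2 -0.30 ± 0.13, adjusted p = 0.11), and per 1000000 repeat reads its groups overlap, at 1838 and 1994 against 1949 and 1936. RLTR30D_RN, at 219 and 180 against 197 and 199, overlapped. Members made up 1.62% and 1.8% of repeat reads against 2.04% and 2.03%.

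Of 100 members tested in untimed GMPs, 0 were higher and 16 lower, where 0.302% of all repeats were higher and 14% lower. At an unadjusted p under 0.05 there were 26 members (32.8% of all repeats), and 14.3% of all repeats passed in either direction. Groups were separate for 3 members upward (3.83% of all repeats) and 52 downward (61.9% of all repeats). The median over all repeats was -0.28 and over members -0.30. Among members with a mean of 50 or more and separate groups, the largest falls were those of MURVY-int (38.8 and 56.8 against 118 and 206, log2 -1.71, limma adjusted p = 0.000898), MER92A (42.7 and 37 against 113 and 73.6, log2 -1.18, adjusted p = 0.0183), LTR37-int (57 and 48.7 against 118 and 111, log2 -1.10, adjusted p = 0.0121) and MERV1_I-int (330 and 267 against 603 and 600, log2 -1.02, adjusted p = 0.000163), followed by RLTR4_MM-int. MER92A is an LTR whose name is used across mammals, and MERV1_I-int is the internal region of a mouse ERV1. The part of sex in MURVY-int was not tested here either. After TMM rescaling, 0 members passed, and edgeR on recovered reads called 0, while DESeq2 on those reads called 4, among them MURVY-int, MERV1_I-int and RLTR4_MM-int. Late neutrophil markers in the gene columns were at 16897 and 26606 for Daxx-KO and 2889 and 4027 for WT by label.

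The Pu.1 line asks for the effect of the Pu.1 deletion alone, in both cell types in 1 table. The Spi1 count does not check the Pu.1 label here either. In KLS cells Spi1 was at 2920 and 1307 for Pu.1-KO and 2764 and 2080 for WT, with overlap. In GMPs it was lower in Pu.1-KO, at 2589 and 2707 against 3395 and 3934. In KLS cells the MLV rows were lower in both Pu.1-KO libraries than in either WT library. RLTR4_MM-int was at 2051 and 617 normalised counts against 5416 and 3027. MuLV-int was at 557 and 223 against 1198 and 810, RLTR4_Mm at 360 and 95.7 against 759 and 548, and RLTR30D_RN at 39.9 and 17 against 116 and 52.7. Library b was the lower one within both groups, and the groups do not overlap for any of the 4 rows.

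Log2 differences in these KLS cells were -1.66 ± 0.46 for RLTR4_MM-int, -1.37 ± 0.36 for MuLV-int, -1.53 ± 0.47 for RLTR4_Mm and -1.59 ± 0.49 for RLTR30D_RN, with an edgeR adjusted p of 0.216 for each. Without Pu.1-KO library a all 4 passed, at -2.76 (adjusted p = 0.000451), -2.15 (0.000573), -2.75 (0.000214) and -2.27 (0.00546), with the lone library b assumed to vary like the other groups. Library b held 0.746 repeat reads per gene read, where the other 3 held 0.258 to 0.368. Per 1000000 gene reads the MLV sum was 1340 and 912 for Pu.1-KO, with 1803 and 1551 for WT, a smaller distance, and with gene-read library sizes the RLTR4_MM-int difference was -0.65 (adjusted p = 0.245). KLS and stem cell markers summed to 19942 and 9918 for Pu.1-KO, with 38599 and 32411 for WT, and B-lineage markers at 13915 and 5528 against 4077 and 4153, and their part in the result was not tested.

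In GMPs of the Pu.1 line the MLV rows lay in the same direction with a smaller distance. RLTR4_MM-int was at 4169 and 5539 for Pu.1-KO, with 7811 and 7390 for WT, MuLV-int at 1230 and 1571 against 2212 and 2926, and RLTR4_Mm at 566 and 819 against 1085 and 1280. Log2 differences were -0.65 ± 0.45, -0.88 ± 0.36 and -0.77 ± 0.46 (edgeR adjusted p = 0.548, 0.507 and 0.53). The effect in GMPs minus that in KLS cells was 1.02 ± 0.63 for RLTR4_MM-int, 0.49 ± 0.50 for MuLV-int and 0.75 ± 0.65 for RLTR4_Mm, each with an adjusted p of 0.992, so no difference between the cell types was detectable with 2 libraries a group. The 95% interval for RLTR4_MM-int ran from -0.39 to 2.42. Of 121 members, 0 passed in the interaction (0% of all repeats), 3 had an unadjusted p under 0.05 (2.24%) and DESeq2 called 0. Without Pu.1-KO library a of KLS cells 2 members passed, RLTR4_MM-int at 2.09 and RLTR4_Mm.

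A second group of proviruses lay the other way in the Pu.1 line. MURVY-int in KLS cells was at 395 and 528 for Pu.1-KO, with 174 and 307 for WT, and at 457 and 357 against 238 and 180 in GMPs. MuRRS4-int, an internal row of the MuRRS elements (murine retrovirus-related sequences), was at 627 and 836 against 358 and 516 in KLS cells and at 692 and 542 against 458 and 364 in GMPs. MuRRS-int was at 428 and 478 against 273 and 367, and at 437 and 425 against 337 and 298. All 6 pairs of groups are separate, with Pu.1-KO above WT.

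In KLS cells the log2 differences were 0.94 ± 0.27 for MURVY-int, 0.74 ± 0.22 for MuRRS4-int and 0.50 ± 0.16 for MuRRS-int (edgeR adjusted p = 0.216 for each), and in GMPs 0.96 ± 0.27, 0.59 ± 0.22 and 0.44 ± 0.17 (adjusted p = 0.507 for each). Sex-linked genes differed between these animals. The Y-linked gene Ddx3y was at 1191 in KLS cells and 556 in GMPs of Pu.1-KO animal a, at 31.4 and 11.1 in animal b, and at 2.61 to 8.44 in the WT libraries. Ddx3y was thus above WT in both Pu.1-KO animals, as was MURVY-int. The Y-linked gene Uty was at 341 in KLS cells and 30 in GMPs of animal b, against 23.5 to 89.4 in WT libraries. The part of sex in these values was not tested.

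Over all members of the Pu.1 line, 0 of 121 passed in KLS cells (0.236% of all repeats did), 14 had an unadjusted p under 0.05 (19.2%) and DESeq2 called 2. In GMPs 0 of 121 passed (0% of all repeats), 15 had an unadjusted p under 0.05 (9.45%) and DESeq2 called 0. Groups were separate in KLS cells for 33 members upward, or 27.3% (26% of all repeats), and 22 downward, or 18.2% (25.1%). In GMPs they were separate for 34 upward, or 28.1% (29.5% of all repeats), and 23 downward, or 19% (25.9%). RLTR6-int was at 1174 and 1152 against 924 and 1083 in KLS cells and at 1274 and 1196 against 1056 and 915 in GMPs. MMERGLN-int was at 940 and 729 against 1008 and 1176 in KLS cells but overlapped in GMPs, at 1105 and 1391 against 1128 and 1340.

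**Figure D4:**
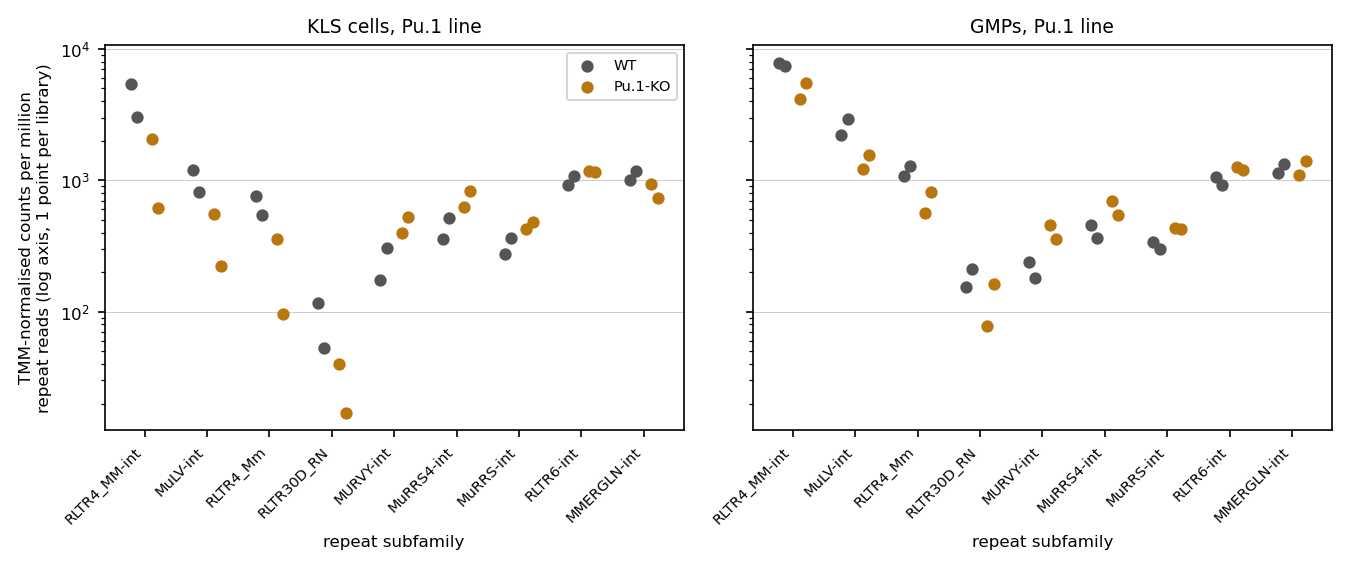
Normalised counts (TMM-scaled counts per 1000000 repeat reads, log axis, 1 point per library) of 9 members in KLS cells (left) and GMPs (right) of the Pu.1 line. The MLV rows of Pu.1-KO lie below WT in both cell types (RLTR4_MM-int 617 and 2051 against 3027 and 5416 in KLS cells), and MURVY-int, MuRRS4-int and MuRRS-int of Pu.1-KO lie above WT.

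WT GMPs and WT KLS cells could be compared in the Pu.1 line and at 24 w.p.i. In the Pu.1 line the internal MLV rows lay higher in GMPs, with RLTR4_MM-int at 7811 and 7390 against 5416 and 3027 (log2 0.85 ± 0.45) and MuLV-int at 2212 and 2926 against 1198 and 810 (log2 1.36 ± 0.36), but neither passed in edgeR (adjusted p = 0.995 and 0.274). LTR37-int was at 53.6 and 65.7 in GMPs and 30.4 and 10.8 in KLS cells (log2 1.57, adjusted p = 0.274), and RLTR30D_RN at 155 and 213 against 116 and 52.7 (log2 1.14, adjusted p = 0.972). Of 121 members 0 passed (0.472% of all repeats did), 7 had an unadjusted p under 0.05 (4.84%) and DESeq2 called 2, LTR37-int and MuLV-int.

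At 24 w.p.i. none of the MLV rows lay higher in both GMP libraries than in both KLS libraries. RLTR4_MM-int was at 5438 and 6614 in GMPs and 6024 and 9394 in KLS cells, MuLV-int at 1642 and 2053 against 1173 and 2468, and RLTR4_Mm at 1121 and 1353 against 1506 and 1925. In GMPs 2 of 114 members tested were lower and 0 higher, where 1.95% of all repeats passed in either direction, and 17 had an unadjusted p under 0.05 (11.3% of all repeats). They were RLTR30D_RN, at 135 and 127 against 224 and 349 (log2 -1.13 ± 0.21, edgeR adjusted p = 0.00196), and RLTR4_Mm (log2 -0.47 ± 0.12, adjusted p = 0.0418). Neither passed without KLS library b, at -0.78 and -0.28, and RLTR4_Mm also did not pass with DESeq2 size factors or with gene-read library sizes, at -0.24. MuRRS-int was at 195 and 256 in GMPs and 137 and 145 in KLS cells (log2 0.68, adjusted p = 0.113) and LTR37-int at 42.5 and 26.3 against 18.2 and 18.2. LTR37-int was thus higher in GMPs than in KLS cells in both tables, without passing the test. The internal row RLTR4_MM-int differed in sign between the tables (log2 0.85 in the Pu.1 line and -0.36 ± 0.14 at 24 w.p.i., adjusted p = 0.276), and line, time and table cannot be told apart.

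Known silencers of ERV1 were read from the gene tables with a list of 30 genes, 29 of them tested. The list also holds the restriction factor genes Apobec3 and Samhd1. At 3 w.p.i., the Daxx-KO libraries differed from WT in 1 of the 29, Daxx itself, in KLS cells (log2 -2.44 ± 0.23, limma adjusted p = 0.00373) and in GMPs (log2 -3.18 ± 0.24, adjusted p = 0.000763), where 0.257% and 0.0948% of all genes passed. In KLS cells Trim28, the co-repressor recruited by zinc-finger proteins, was at log2 0.41 ± 0.16 (adjusted p = 0.386), Setdb1, its H3K9 methyltransferase, at 0.07 ± 0.15 (0.893), Zfp809, which binds the MLV primer-binding site, at -0.15 ± 0.18 (0.784) and Dnmt1, the maintenance DNA methyltransferase, at 0.37 ± 0.24 (0.581). In DKO KLS cells H3f3b, an H3.3 gene, rose (log2 0.67, adjusted p = 0.0311), and Daxx, the de novo methyltransferase gene Dnmt3b (log2 -0.62, adjusted p = 0.0398) and the restriction factor gene Samhd1 (log2 -1.20, adjusted p = 0.0035) fell, where 17.6% of all genes passed.

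In the untimed gene columns 7 of the 29 listed genes were higher and 1 lower in KLS cells labelled Daxx-KO (10.6% and 12.5% of all genes). Among the higher ones were Trim28 (log2 0.52, limma adjusted p = 0.0217), Samhd1 and Apobec3, a cytidine deaminase that restricts MLV (log2 0.76, adjusted p = 0.00105). In untimed GMPs 4 were higher and 8 lower (16.6% and 16.5% of all genes), the lower ones including Trim28 (log2 -0.55, adjusted p = 0.00325), Dnmt1 (log2 -0.50, adjusted p = 0.00338) and Hells, a helicase needed for DNA methylation (log2 -1.42, adjusted p = 3.08e-05). In the Pu.1 line 0 of 29 passed in KLS cells (0.81% of all genes) and 7 were lower in GMPs (8.49% of all genes), Setdb1, Trim28 and Apobec3 among them. The median log2 difference of the listed genes was -1.16 in these KLS cells, where that of all genes was 0.12. In the GMPs it was -0.49, with -0.00 over all genes. The list as a whole thus lay lower in Pu.1-KO KLS cells although no single gene passed. Of the 4 receptor genes that MLV classes use for entry, Slc7a1, Slc20a1, Slc20a2 and Xpr1, 0 passed at 3 w.p.i. in Daxx-KO, Slc20a2 was higher in DKO KLS cells (log2 0.65, adjusted p = 0.0169), and Slc7a1 was lower in GMPs of the Pu.1 line. In untimed KLS cells labelled Daxx-KO, Slc20a1 (log2 -0.94, limma adjusted p = 0.00525) and Xpr1 (log2 -0.41, adjusted p = 0.0436) were lower. In untimed GMPs labelled Daxx-KO, Slc20a1 was higher (log2 0.51, adjusted p = 0.0279) and Slc7a1 lower (log2 -0.53, adjusted p = 0.00459).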

How the data were processed

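Reads were processed by the authors. The processing notes name CASAVA 1.8.4, cutadapt 1.13, STAR 2.5.3, DESeq2 1.16.1 and mm10. The repeat tables of 3 and 24 w.p.i. hold raw counts deposited by the authors per subfamily (in tables with the name or column endings of TEtranscripts), and how reads shared by copies were split is not given in the sources used here. The untimed repeat tables and all gene tables hold signal, which the authors deposited after dividing each library's reads by its own size factor. Raw counts were tested with edgeR 4.0.16 (quasi-likelihood, TMM) in R 4.3.3, signal with limma 3.58.1 on log2(value + 1) over features with a mean of 10 or more, each over the whole table, with a call at an adjusted p under 0.05 and 95% intervals from the t distribution. DESeq2 1.42.0 was an alternative. Fits were tested on simulated data. Fold changes on the log2(value + 1) scale understate those of low features. Groups came from the labels where a label carries the number of the column. For the Pu.1 line, the 24 w.p.i. cells and the unnumbered WT library they came from the column ending. That ending marks treated or control libraries. GMPs at 3 w.p.i. were grouped by the animal numbers on KLS labels. The p-values rest on a spread between libraries that the fits pool over features, so a row's own spread can count little. In untimed KLS cells LTRIS4B, at 3778 and 1097 against 952 and 1393, still had a standard error of 0.17.

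Members and lists were chosen with earlier results of these data known. Named members were at most 5 rises and 5 falls per comparison, with a mean of 50 or more and separate groups, plus mouse gammaretroviral names. Of 111 columns of values 38 were not used, among them the LT-HSC, MPP and 24 w.p.i. knockout columns, whose names carry no sample the labels give, and these comparisons were not analysed here. KLS cells and GMPs of the Pu.1 line and of the 24 w.p.i. table share animal numbers.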

Additional observations from a re-analysis of the deposited data

How the results depend on the processing

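Counts of members called moved by more than 1.5 times as follows. In untimed KLS cells (13 called) TMM rescaling gave 5, edgeR on recovered reads 5, and leaving out 1 library 4 to 19. In untimed GMPs (16 called) these gave 0, 0 and 8 to 24, and DESeq2 gave 4. For Daxx-KO against WT KLS cells at 3 w.p.i. (0 called) DESeq2 gave 1, gene-read library sizes 3, and leaving out 1 library 0 to 2. For DKO against WT KLS cells (0 called) DESeq2 size factors gave 1, DESeq2 7, no filter 1, gene-read library sizes 19, and leaving out 1 library 0 to 2. In GMPs, DKO against WT, leaving out 1 library gave 0 to 1. For Pu.1-KO against WT KLS cells (0 called) DESeq2 gave 2, gene-read library sizes 31, all higher, and leaving out 1 library 0 to 13. For WT GMPs against KLS cells of the Pu.1 line DESeq2 gave 2 and leaving out 1 library 0 to 1, and for the interaction 0 to 2. At 24 w.p.i. (2 called) DESeq2 size factors gave 1, DESeq2 4, gene-read library sizes 4, and leaving out 1 library 1 to 9. The libraries that moved a count most when left out were WT 2 (4) for untimed KLS cells, Daxx-KO 2 (8) for untimed GMPs, Daxx-KO 2 (2) for KLS cells at 3 w.p.i., DKO 2 and the unnumbered WT library (2 each) for DKO KLS cells, DKO a (1) for GMPs, Pu.1-KO a of KLS cells (13, and 2 for the interaction), WT a of KLS cells (1) for the Pu.1 line's cell types, and GMP a (9) and b (8) at 24 w.p.i. The cause was not tested.

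Some MLV rows changed sign. In GMPs, DKO against WT, leaving out 1 library gave -1.09 to 0.34 for MuLV-int, -0.56 to 0.71 for RLTR4_MM-int and -0.76 to 0.79 for RLTR4_Mm. For the interaction MuLV-int was at -0.08 with gene-read library sizes and at -0.05 to 1.26 without 1 library. At 24 w.p.i. leaving out 1 library gave -0.42 to 0.66 for MuLV-int and -0.64 to 0.00 for RLTR4_MM-int.

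Ratios of the summed members (first group over second) moved when rows were left out. Without RLTR4_MM-int they were 0.529 (untimed KLS cells), 0.966 (untimed GMPs), 1.25 and 1.27 (Pu.1-KO against WT in KLS cells and GMPs) and 0.871 (WT GMPs against KLS cells, Pu.1 line). Without the 3 MLV rows they were 1.04, 0.992, 1.34, 1.41 and 0.77 in that order, 0.981 for Daxx-KO against WT GMPs and 1.1 for DKO against Daxx-KO GMPs. Over gene reads they were 2.03, 1.27 and 0.788 for the 3 comparisons of the Pu.1 line.

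Replicate numbers were also fitted as a block. Libraries that share only a number gave 7 members with the replicate block for Daxx-KO and 10 for DKO against WT KLS cells, on the libraries numbered 1 and 2. Deviations of same-numbered libraries correlated at 0.152 and 0.00307 there, at 0.0303 and -0.207 in untimed KLS cells and GMPs. In the Pu.1 line the animals' numbers pair KLS cells with GMPs, with correlations of -0.135 and -0.242, and the block called 0 members in either fit. A crossed pairing, added after seeing the data like the 24 w.p.i. comparison and the sums without MLV rows, gave 4 for WT GMPs against KLS cells. At 24 w.p.i. the correlation was 0.0261 and the block called 3. No paired analysis was possible for the GMPs at 3 w.p.i. and Pu.1-KO against WT within a cell type, because the groups compared share no numbers. With 2 or 3 libraries a group and multi-copy reads, small differences of low members were not detectable.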

Other observations

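Levels of some members differed between the tables far more than between groups within them. LTRIS4B was at 329 to 1472 reads per 1000000 repeat reads in the untimed libraries and at 8.41 to 69.3 normalised counts in the raw-count tables. MURVY-int was at 174 to 528 in the Pu.1 line and at 7.92 to 66.2 in the other raw-count tables, and MuRRS4-int at 358 to 836 against 109 to 312. RLTR6-int was at 915 to 1274 in the Pu.1 line and 382 to 684 in the others. Tables were made and scaled separately, so line, time and table cannot be told apart here.

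The ratio of LTR to internal reads of MLV (RLTR4_Mm to RLTR4_MM-int) was 0.164 to 0.184 in the 3 Daxx-KO KLS libraries at 3 w.p.i. and 0.233 to 0.247 in the 3 WT libraries, with DKO at 0.173 and 0.228. In GMPs at 3 w.p.i. the values were 0.179 and 0.211 for Daxx-KO, with 0.238 and 0.21 for WT and 0.199 and 0.234 for DKO. The comparison was made after seeing the data and was not tested.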
